A study of Mus musculus with 9 samples.

Results

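Genes of pelvic autonomic neurons were followed in the urogenital sinus of mouse fetuses and newborns. The genes were Phox2a, Hand2, Th, Dbh, Ret, Prph, Stmn2 and Stmn4, and every probe set annotated to one of these symbols alone was taken, which gave 17 of the 45037 probe sets that are not array controls. All 17 passed the filter on low values (mean log2 value of at least 5.54, a signal of 41.2) that left 26999 probe sets for testing. The rule for membership uses gene symbols alone, but the genes were chosen with earlier results of these data known. Counts of members set against all probe sets or all genes are therefore descriptions.

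The urogenital sinus is the embryonic tissue from which the prostate and the bladder neck form, and it was dissected from C57BL/6 mice after removal of bladder, urethra and the sex ducts in males and females. The sex of the tissue on each array is not given in the sources used here. Pregnant females had received bisphenol A (BPA), a building block of plastics that binds estrogen receptors weakly, at 20 µg/kg/day or the potent synthetic estrogen diethylstilbestrol (DES) at 0.2 µg/kg/day from E13 to E16. Each agent was dissolved in tocopherol-stripped corn oil, and the control fetuses are labelled as exposed to the vehicle. The sinus was collected on embryonic days 17 and 18 (E17, E18) and at birth (P0), with 1 Affymetrix array for each agent at each age, 9 arrays in all. The number of animals or litters behind an array is not given in the sources used here, so the p-values below reflect array-to-array spread alone, and part of that spread may be technical. In the main model, an exposure difference that changes with age also counts toward that spread. The 3 arrays of an agent are its only repeats, and they differ in age.

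The pelvic ganglia lie beside the urogenital sinus and send sympathetic and parasympathetic axons into it. Their neurons come from the neural crest: Phox2a and Hand2 are transcription factors of the noradrenergic programme, and Th and Dbh are enzymes of noradrenaline synthesis that belong to that programme. Ret is the signalling receptor for the GDNF family of growth factors, which autonomic and enteric neuron precursors need. Prph encodes peripherin, an intermediate filament of peripheral neurons, and Stmn2 and Stmn4 encode stathmins, tubulin-binding proteins of growing axons. In whole tissue, fewer neurons and less RNA per neuron cannot be told apart.

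Promoter windows of Th, Dbh and Phox2a are shown because the first pair are known targets of the homeodomain factor that Phox2a encodes. Each window runs from 250 bases before to 50 bases after the gene's start in RefSeq on GRCm38.p6, 5′ to 3′ on the gene's strand. The Th window is chr7:142899946-142900245 on the minus strand, the Dbh window chr2:27165257-27165556 on the plus strand and the Phox2a window chr7:101818063-101818362 on the plus strand. Capitals mark TAAT, the core of homeodomain sites, on either strand (ATTA on the other one), and TGACGTCA, the cAMP response element.
Th: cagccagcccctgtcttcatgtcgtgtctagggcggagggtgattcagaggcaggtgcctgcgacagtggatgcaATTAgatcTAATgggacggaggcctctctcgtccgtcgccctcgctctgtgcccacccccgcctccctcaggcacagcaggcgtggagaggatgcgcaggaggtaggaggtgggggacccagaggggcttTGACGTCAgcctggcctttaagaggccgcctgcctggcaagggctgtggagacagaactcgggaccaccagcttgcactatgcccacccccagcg
Dbh: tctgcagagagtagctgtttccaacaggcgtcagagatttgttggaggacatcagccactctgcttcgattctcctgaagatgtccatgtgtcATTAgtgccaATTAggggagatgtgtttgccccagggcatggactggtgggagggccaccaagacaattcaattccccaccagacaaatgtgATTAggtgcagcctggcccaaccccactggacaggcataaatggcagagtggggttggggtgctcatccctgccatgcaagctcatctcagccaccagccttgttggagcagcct
Phox2a: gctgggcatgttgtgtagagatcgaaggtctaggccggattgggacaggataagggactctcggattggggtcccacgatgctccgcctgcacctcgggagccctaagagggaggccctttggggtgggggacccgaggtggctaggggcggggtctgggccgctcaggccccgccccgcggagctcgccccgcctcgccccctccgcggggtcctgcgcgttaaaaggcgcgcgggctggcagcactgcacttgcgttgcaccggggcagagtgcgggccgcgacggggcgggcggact
The Th window held 1 TGACGTCA, whose first base lies at -45, and 2 TAAT cores, at -175 and -167. The Dbh window held 3 TAAT cores, at -157, -147 and -65, and no TGACGTCA. The Phox2a window held neither. Among 32851 mouse promoter windows of 300 bases searched the same way, 1.79% held TGACGTCA and 58.0% held at least 1 TAAT, so the short core is common. The paired homeodomain site, TAAT and its reverse complement with 3 bases between them, was in 0.487% of windows and in none of the member windows available, which were those of Phox2a, Hand2, Th, Dbh and Prph. A match is a string of letters and not a binding site, and the arrays did not measure binding.

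Markers of the other tissues near the sinus were read on the same normalised scale. The 6 motor and central neuron markers all averaged below the filter level, with Olig2 at a mean signal of 2.08 and Neurod6 at 1.30. Of the 5 sensory neuron markers, Pou4f1, Avil and Scn10a averaged 27.5, 21.1 and 6.90, below the filter level too, whereas Tac1 and Runx1 averaged 141 and 76.5, above it. Pnmt, which makes adrenaline in the adrenal medulla, lay between 38.7 and 115, and 4 of the 6 adrenal markers averaged below the filter level. The summed signal of the 6 adrenal markers was 619 on the BPA P0 array and 156 to 322 on the other arrays. Of the adrenal cortex genes, Cyp11b1 and Mc2r averaged 38.2 and 17.7, whereas Star, also a gene of other steroid-making cells, averaged 96.0. Nr5a1 and Cyp17a1 averaged 57.6 and 18.7. The filter applies to the mean log2 value, so Nr5a1 fell below it although its mean signal exceeded 41.2. Schwann cell and glia markers were present, among them Sox10 at 144 to 318 and Erbb3 at 566 to 699. The lists used here do not tell pelvic neurons from other autonomic neurons.

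The question of the agent comparisons was whether prenatal BPA or DES left the expression of these genes different from control. In BPA sinus, 13 of the 17 probe sets had a log2 difference below 0, against 51.0% of all tested probe sets, with a median of -0.18 against 0.00 for all probe sets. Taking each gene by its brightest probe set, 8 of 8 lay below 0, against 47.7% of 13399 genes taken the same way, with a median of -0.26. In DES sinus, 12 of 17 probe sets lay below 0, against 49.2%, with a median of -0.22, and 6 of 8 genes, against 43.4% of genes, with a median of -0.21. With limma and Benjamini-Hochberg adjustment over the 26999 probe sets, 0 of the 17 probe sets passed 0.05 for BPA and 0 of 17 for DES, where 0% of all tested probe sets passed in either comparison. At an unadjusted p under 0.05, 4 of 17 probe sets were counted for BPA and 6 of 17 for DES, against 7.84% and 5.63% of all tested probe sets. The 4 for BPA were 3 lower and 1 higher (a dim Prph probe set), and the 6 for DES were all lower. Both comparisons use the same 3 control arrays, so their values are set side by side and are not independent, and the doses of BPA and DES differ.

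Skin-type epithelium and smooth muscle genes had differences above 0 for both agents, and their values stand here beside the neuronal ones. All 5 skin epithelium markers lay above 0, with a median of 2.31 for BPA and 0.51 for DES. The summed signal of 5 skin epithelium markers was 1186, 7136 and 18849 on the BPA arrays at E17, E18 and P0 and 888 to 1760.5 on the DES arrays, against 815 to 888 on the control arrays. All 7 smooth muscle markers had a difference above 0 for both agents, with a median of 0.69 for BPA and 0.30 for DES. Their sum was 34191 to 37004 on BPA arrays, 27187 to 30477 on DES arrays and 21060 to 34619 on control arrays, so BPA and control overlapped. Skeletal muscle markers lay below 0 in 5 of 7 cases for BPA, with a median of -0.57, and in 1 of 7 for DES; their sum was 10224 to 11599 on BPA arrays, 10249 to 12997 on DES arrays and 10185 to 11088 on control arrays. The sum of 5 gonad markers was 3297 on the BPA P0 array and 395 to 496 on the other 8 arrays. None of these marker genes passed the adjusted threshold in the BPA comparison. The 8 neuronal genes summed to 7913 to 8392 on BPA arrays, 7822 to 8670 on DES arrays and 9011 to 10216 on control arrays. The part of these markers in the neuronal values was not tested.

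Phox2a, a homeodomain factor of noradrenergic neurons, was lower after both agents. Its probe set 1418620_at read 446, 405 and 448 at E17, E18 and P0 after BPA, 377, 411 and 402 after DES, and 600.2, 513 and 523 in control sinus. Every BPA and every DES array lay below every control array. The BPA difference was -0.33 ± 0.11 log2 units (SE; 433 ± 24.1 in BPA against 546 ± 47.5 in control, SD, n = 3 each; limma adjusted p = 0.496). The DES difference was -0.45 ± 0.11 (397 ± 17.3 in DES against 546 ± 47.5 in control; limma adjusted p = 0.843, unadjusted p = 0.00217). The gap between control and exposed arrays was widest at E17 for both agents, at -0.42 for BPA and -0.66 for DES. Complete separation of the 3 BPA arrays below the 3 control arrays was found for 4 of the 17 probe sets, against 5.26% of all tested probe sets. They were the brightest probe sets of Phox2a, Th, Prph and Stmn2, 4 of the 8 genes, against 4.63% of genes. For DES it was found for 5 of 17 probe sets, against 5.04%, and for 3 of 8 genes (Phox2a, Prph and Stmn2), against 4.09%.

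Hand2, a basic helix-loop-helix factor that sympathetic neurons need and that other mesenchyme also expresses, stood apart from Phox2a. Probe set 1436041_at read 1159, 1110.0 and 960.2 after BPA, 1239.7, 1128 and 1021 after DES, and 1209, 1224 and 845 in control sinus at E17, E18 and P0. The groups overlapped, with the lowest value of all on the control P0 array. Its differences were -0.01 ± 0.09 for BPA (limma adjusted p = 0.994) and 0.06 ± 0.09 for DES (limma adjusted p = 0.932). The dimmer probe sets 1422221_at and 1443854_at gave -0.27 ± 0.20 and -0.18 ± 0.33 for BPA and -0.40 ± 0.20 and -0.54 ± 0.33 for DES, so the 3 Hand2 probe sets did not share a size of difference. The DES value of 1443854_at rests on the E18 array, where it read 15.6, against 42.8 to 58.1 on the other 8 arrays.

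**Figure D1:**
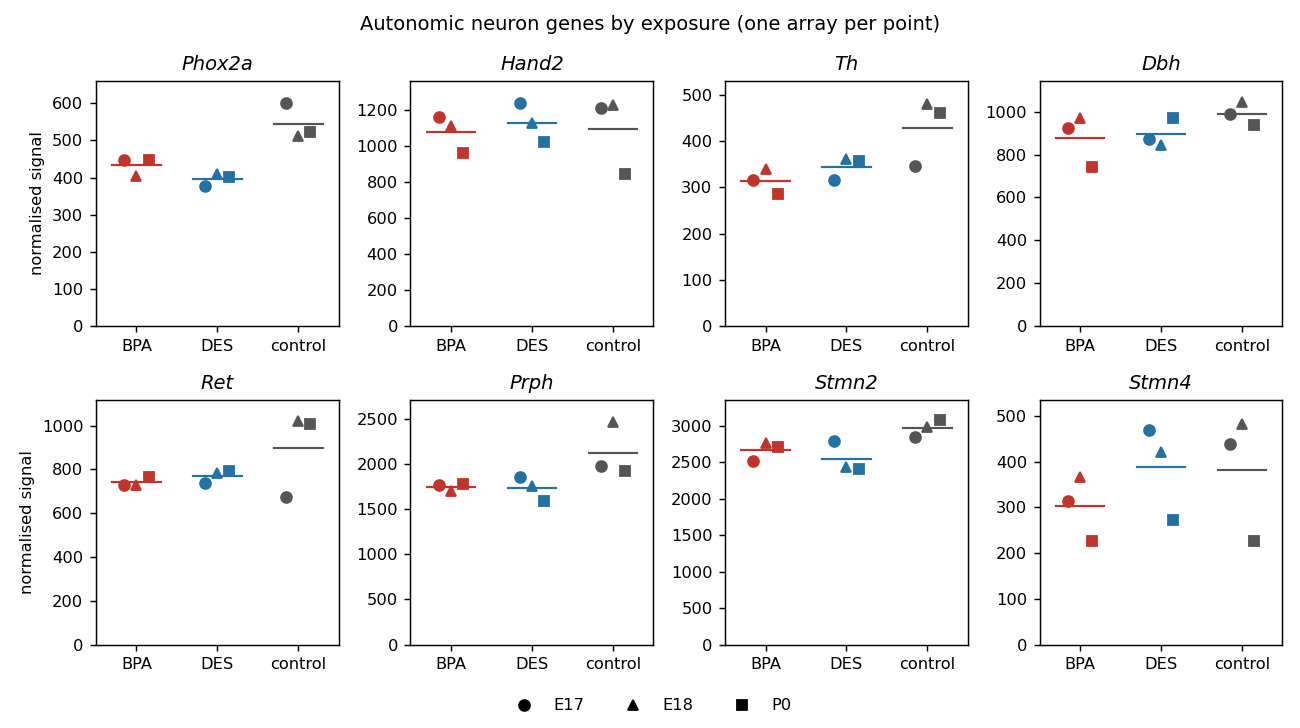
Normalised signal (linear scale from 0) of the brightest probe set of each gene on the y axis, by exposure on the x axis. Each point is 1 array, marked by age; Phox2a, Prph and Stmn2 lie lower on every BPA and DES array than on any control array, whereas Hand2 overlaps.

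Th encodes tyrosine hydroxylase, the rate-limiting enzyme of catecholamine synthesis, and had the largest BPA difference among the brightest probe sets. Probe set 1420546_at read 316, 340.1 and 285 after BPA, 315, 361 and 357 after DES, and 346, 481 and 461 in control sinus. All BPA arrays lay below all control arrays, with the BPA P0 array lowest, whereas the DES values at E18 and P0 were above the control value at E17. The BPA difference was -0.43 ± 0.13 (314 ± 27.6 in BPA against 429 ± 72.8 in control; limma adjusted p = 0.459, unadjusted p = 0.00702). The DES difference was -0.30 ± 0.13 (limma adjusted p = 0.843). By age, BPA differed from control by -0.13 at E17, -0.49 at E18 and -0.68 at P0. This change of -0.28 ± 0.14 per age step did not pass the test (limma adjusted p = 0.606), and on linear age slopes 0 of 17 probe sets passed for either agent, against 0.00741% of tested probe sets for BPA and 0% for DES. Without the BPA P0 array, whose deposited intensities were the lowest of the series, the Th difference was -0.33.

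Dbh encodes dopamine beta-hydroxylase, which turns dopamine into noradrenaline, and its 3 probe sets differed from each other. The brightest, 1459848_x_at, read 923, 971 and 744 after BPA, 874, 846 and 972 after DES, and 988, 1044 and 940.4 in control sinus. The groups overlapped. Its differences were -0.18 ± 0.11 for BPA (limma adjusted p = 0.749) and -0.14 ± 0.11 for DES (limma adjusted p = 0.877). The suffix _x_ marks a probe set in which some probes also match other transcripts. Probe set 1450670_at, which carries no such suffix, read 489.9, 549.6 and 494 after BPA, 437, 453 and 481 after DES, and 514, 770.3 and 575 in control sinus. There all DES arrays lay below all control arrays, and the control E18 array stood far above the rest. Its differences were -0.26 ± 0.12 for BPA (limma adjusted p = 0.676) and -0.42 ± 0.12 for DES (limma adjusted p = 0.843). The dimmest Dbh probe set, 1447592_at, gave 0.17 ± 0.13 for BPA and -0.01 ± 0.13 for DES.

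Ret was represented by 1436359_at, which read 729, 727 and 764 after BPA, 737, 785 and 793 after DES, and 672, 1019 and 1006 in control sinus. The control E17 array was the lowest of all 9 and the control arrays at E18 and P0 were the highest. The exposed arrays therefore lay within the control range, at -0.25 ± 0.12 for BPA (limma adjusted p = 0.683) and -0.19 ± 0.12 for DES (limma adjusted p = 0.856). In the model of age slopes, the BPA difference for Ret moved by -0.26 ± 0.13 per age step (limma adjusted p = 0.617). The second Ret probe set, 1421359_at, gave -0.18 ± 0.18 for BPA and -0.26 ± 0.18 for DES.

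Prph was bright on 1 probe set and dim on the other 3, and the directions differed between them. Probe set 1422530_at read 1768, 1702 and 1781 after BPA, 1860.5, 1756 and 1591 after DES, and 1983, 2472 and 1929 in control sinus. All exposed arrays lay below all control arrays, and the control E18 array was far the highest. The differences were -0.27 ± 0.10 for BPA (1750.3 ± 42 against 2128 ± 299; limma adjusted p = 0.526) and -0.29 ± 0.10 for DES (1736 ± 136 against 2128 ± 299; limma adjusted p = 0.843). Without the control E18 array they were -0.16 for BPA and -0.17 for DES. Probe set 1449797_x_at read 152, 174 and 153 after BPA, 116, 115 and 124 after DES, and 98.4, 119 and 117 in control sinus, so that here every BPA array lay above every control array. Its BPA difference was 0.49 ± 0.15 (limma adjusted p = 0.459), the opposite sign to the bright Prph probe set, and its DES difference was 0.08 ± 0.15. It was the only one of the 17 probe sets with all BPA arrays above all control arrays, a pattern of 5.05% of tested probe sets. Probe sets 1449796_at and 1420256_x_at gave 0.15 ± 0.25 and 0.52 ± 0.43 for BPA and 0.14 ± 0.25 and 0.55 ± 0.43 for DES. The 1420256_x_at values rest on the control E17 array, at 23.3 against 63.9 to 140.5 on the other 8.

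Stmn2 was measured by a pair of bright probe sets that pointed the same way. Probe set 1423280_at read 2516, 2769 and 2703 after BPA, 2796, 2437 and 2414 after DES, and 2845, 2979 and 3079 in control sinus. All exposed arrays lay below all control arrays, although the DES E17 value came close to the control E17 value. The differences were -0.16 ± 0.08 for BPA (limma adjusted p = 0.691) and -0.22 ± 0.08 for DES (limma adjusted p = 0.843). Probe set 1423281_at gave -0.18 ± 0.10 and -0.27 ± 0.10 for the same comparisons, with all DES arrays below all control arrays and 1 BPA array inside the control range.

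Stmn4 read 314, 368 and 228 after BPA, 469.9, 420.5 and 273 after DES, and 439, 484 and 227 in control sinus on its probe set 1418105_at. The groups overlapped, and the P0 array was the lowest of each exposure. The differences were -0.29 ± 0.13 for BPA (limma adjusted p = 0.654) and 0.05 ± 0.13 for DES (limma adjusted p = 0.962). The BPA values were lower than control at E17 and E18, by -0.48 and -0.39 log2 units, and level with control at P0 (0.00).

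**Figure D2:**
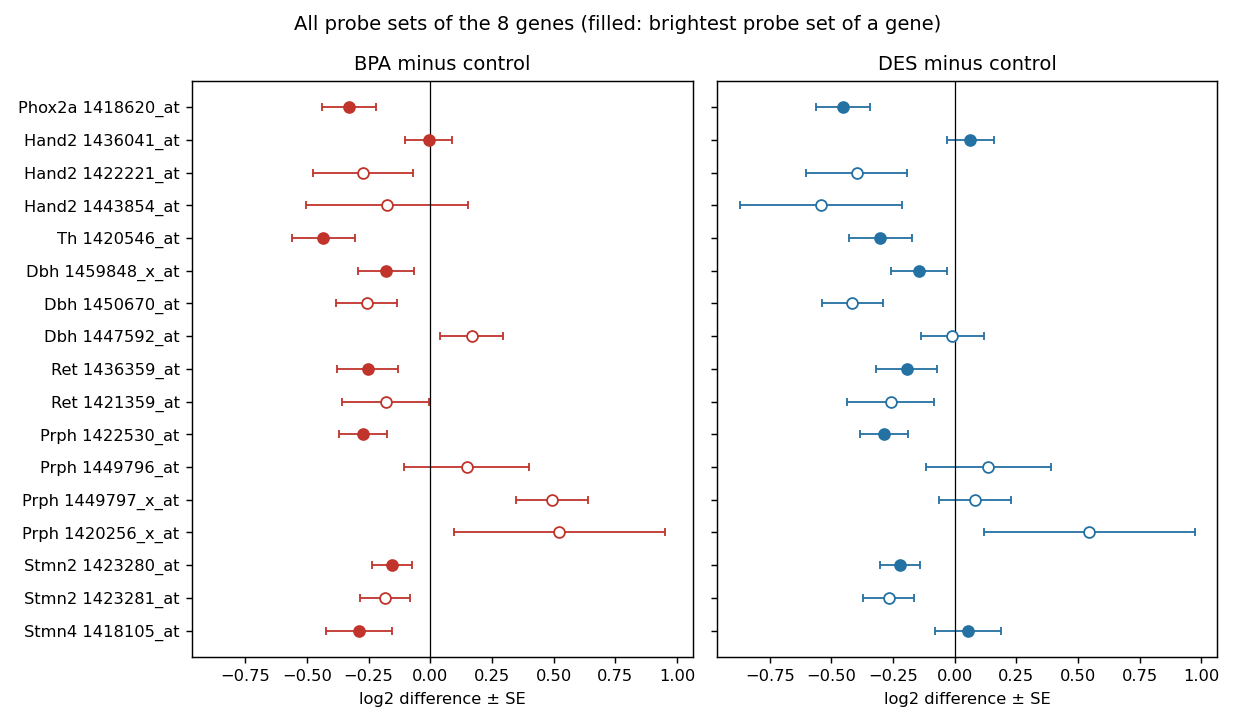
Log2 difference with its SE (x axis) for all 17 probe sets (y axis) in the BPA minus control and DES minus control comparisons. Filled points mark the brightest probe set of a gene. Points left of 0 are lower in the first-named group; the dim Prph probe sets lie right of 0 for BPA, the bright one left of it.

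The combined level of the 8 genes also varied among the control arrays. As the mean of the 8 standardised values per array, control E18 was highest at 1.36 SD units, with control E17 at 0.48 and control P0 at 0.33. The exposed arrays lay between -0.07 (DES E17) and -0.82 (BPA P0, where all 8 genes were below their own mean). Without the control E18 array, 7 of 8 genes stayed below 0 for BPA, with a median of -0.16, and 6 of 8 for DES, with a median of -0.15. Without the BPA P0 array, 8 of 8 lay below 0 for BPA, with a median of -0.27.

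Age was the other factor of the design, and Stmn4 had the largest age difference of the 8 genes by this measure. Averaged over the 3 exposures, Stmn4 read 242 ± 26.2 at P0 and 407 ± 82.7 at E17 (SD, n = 3 each), and every P0 array lay below every E17 array. The difference was -0.72 ± 0.13 (limma adjusted p = 0.0807), just outside the threshold over all probe sets. It passed with 1 probe set per gene (limma adjusted p = 0.0433), with the values as deposited (-1.02, limma adjusted p = 0.0206) and without the DES P0 array (-0.75, limma adjusted p = 0.0326, where 1606 of all probe sets passed). These were 3 of 19 alternatives. Over all 19 the adjusted p ran from 0.0206 to 0.378. With the values as deposited, 392 of all probe sets passed, and the median difference of all probe sets was itself -0.29. Against E18, where Stmn4 read 424 ± 58.1, the P0 difference was -0.79 ± 0.13 (limma adjusted p = 0.236), which became -0.82 with a limma adjusted p of 0.0401 without the DES P0 array.

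Hand2 was the other gene with all P0 arrays below all E17 arrays, at 942 ± 89 at P0 and 1203 ± 40.6 at E17 on 1436041_at. The difference was -0.35 ± 0.09 (limma adjusted p = 0.14), and against E18 it was -0.29 ± 0.09 (limma adjusted p = 0.278). Its dim probe sets gave -0.11 ± 0.20 and 0.20 ± 0.33 for P0 against E17. This separation was found for 2 of 17 probe sets, against 9.92% of tested probe sets, which is 2 of 8 genes (Hand2 and Stmn4), against 9.52% of genes. Both also had all P0 arrays below all E18 arrays, 2 of 17 probe sets against 7.34%, and 2 of 8 genes against 7.52%. Ret was the 1 gene of 8 with all P0 arrays above all E17 arrays (854 ± 132 at P0 and 713 ± 35.5 at E17), against 11.0% of genes, and its difference was 0.25 ± 0.12 (limma adjusted p = 0.334). Over the 17 probe sets the count was 2, with the dim Hand2 probe set 1443854_at, against 9.94% of tested probe sets.

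The remaining 5 genes had overlapping arrays at P0 and E17. Their P0 minus E17 differences were -0.03 ± 0.11 for Phox2a, 0.15 ± 0.13 for Th, -0.08 ± 0.11 for Dbh, -0.08 ± 0.10 for Prph and 0.00 ± 0.08 for Stmn2. Of the 17 probe sets, 0 passed for P0 against E17, where 0.0926% of tested probe sets did, and 0 passed for P0 against E18 or E18 against E17, where 0% did. At an unadjusted p under 0.05 there were 2 of 17 for P0 against E17, against 17.3% of tested probe sets. For P0 against E18 there were again 2 of 17 (13.5% of tested probe sets), and for E18 against E17 there were 0 of 17 (2.75%).

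**Figure D3:**
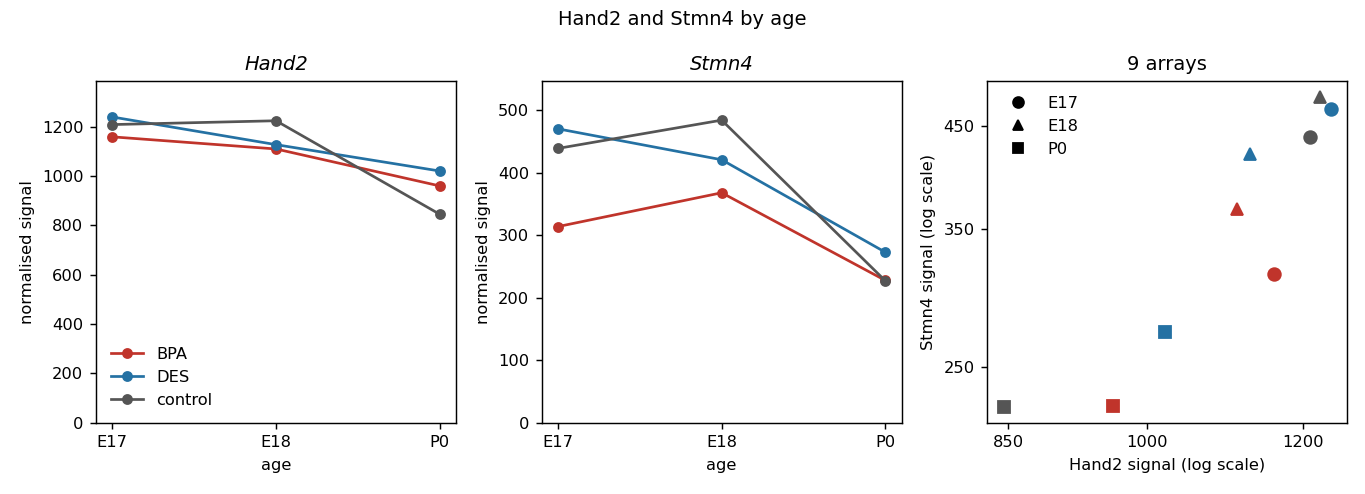
Normalised signal of Hand2 (1436041_at) and Stmn4 (1418105_at) by age, linear axes from 0, with 1 point per array coloured by exposure, and in the third panel Stmn4 against Hand2 on log axes. The P0 arrays are the lowest of each exposure for both genes, and the 9 arrays run along a rising line (r = 0.911).

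Across the 9 arrays the log2 values of 28 gene pairs were compared, and 23 had a positive Pearson r, with a median of 0.386. Taking out the age and agent means left 14 positive pairs and a median of -0.01. Of the 28, 1 pair passed after Benjamini-Hochberg adjustment: Hand2 and Stmn4, with r = 0.911 (exact permutation p = 0.000342, adjusted p = 0.00957) and rho = 0.933 (exact permutation p = 0.00075, adjusted p = 0.021), n = 9 arrays, two-sided. Without the 2 arrays farthest from the median of Hand2, r was 0.85, and after age and agent means were taken out it was 0.847, a value given with no test. The permutation treats the 9 arrays as exchangeable, although they share ages and agents and both genes were lowest at P0 in every exposure. Th and Ret had r = 0.862 (exact permutation p = 0.0114, adjusted p = 0.159), which became 0.06 without the 2 farthest arrays and 0.799 after age and agent means were taken out. Prph and Stmn2 had r = 0.704 (exact permutation p = 0.0224, adjusted p = 0.209) and rho = 0.85.

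The other genes of the autonomic and neuronal programme were read from lists chosen by function, with earlier results of these data known. Of the 20 pan-neuronal genes (neurofilaments, growth-cone and synaptic genes), 20 had a BPA difference below 0, with a median of -0.24, and 18 had a DES difference below 0, with a median of -0.17; over all genes by their brightest probe set, 47.7% and 43.4% lay below 0 for BPA and DES. None passed the adjusted test for either agent. In the BPA comparison 9 of 20 had all exposed arrays below all control arrays (4.63% of genes), and in the DES comparison 3 of 20 (4.09%). Without the BPA P0 array, 18 of 20 lay below 0 for BPA, and without the control E18 array 19 of 20. The lowest BPA value was that of Cntn2, an axonal adhesion protein (45.4 in BPA against 83.1 in control, -0.81 ± 0.19, limma adjusted p = 0.393). Cntn2 was dim, with its BPA mean close to the filter signal of 41.2. Next came Dcx, a microtubule-associated protein of young neurons (-0.54), and the neurofilament subunits Nefh (-0.42) and Nefm (-0.33). For DES the lowest values were those of Map1b (-0.51), Eno2 (-0.38), Snap25 (-0.34) and Rtn1 (-0.33).

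Of 8 further transcription factors of autonomic neurons on the arrays, 7 lay below 0 for BPA and 7 for DES, with medians of -0.22 and -0.22. Over all genes by their brightest probe set, 47.7% and 43.4% lay below 0. The list is not specific to neurons: Gata3 was also on the list of Wolffian duct and ureteric bud markers. Tfap2b and Gata3, both needed by sympathetic neurons, gave -0.28 and -0.28 for BPA and -0.24 and -0.24 for DES. Among 11 tested genes of noradrenergic and cholinergic transmission, 10 lay below 0 for BPA and 8 for DES, each with a median of -0.12. Without the control E18 array the counts were 6 of 11 for BPA and 9 of 11 for DES. Slc18a2, which loads monoamines into vesicles, gave -0.37 for BPA and -0.30 for DES. Ddc, the decarboxylase between Th and Dbh, gave -0.27 for BPA and -0.06 for DES. Slc5a7, the choline transporter of cholinergic neurons, was lowest for DES at -0.40.

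The neuropeptide genes and Nos1, which mark classes of pelvic neurons, lay below 0 in 7 of 8 cases for BPA and 6 of 8 for DES. Of all genes by their brightest probe set, 47.7% lay below 0 for BPA and 43.4% for DES. Leaving out the control E18 array gave 6 of 8 for BPA and 5 of 8 for DES. Adcyap1, which encodes the peptide PACAP, was lowest for both agents, at -0.33 for BPA and -0.46 for DES. Vip, a peptide of parasympathetic pelvic neurons, gave -0.29 ± 0.09 for BPA (limma adjusted p = 0.459) and -0.09 for DES. Npy, a peptide of sympathetic neurons, gave -0.05 for BPA and -0.32 for DES. Secretory granule genes were below 0 in 6 of 6 cases for each agent, with medians of -0.15 and -0.10, and Scg3 was lowest at -0.33 for BPA and -0.38 for DES. The granule gene count was 5 of 6 for each agent without the control E18 array. The GDNF family ligands and receptors, among them the ligands that act through Ret, were below 0 in 5 of 6 cases for BPA and 4 of 6 for DES. These counts became 5 of 6 and 3 of 6 without the control E18 array. Gdnf itself was dim and gave -0.61 ± 0.47 for BPA and -0.22 ± 0.47 for DES (limma adjusted p = 0.798 and 0.956), and it had the largest age value of that list, at 1.29 ± 0.47 for P0 against E17 (limma adjusted p = 0.216).

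Schwann cell and glia markers, which travel with the axons, were below 0 in 6 of 8 cases for BPA (median -0.07) and 4 of 8 for DES (median 0.01). The share of all genes below 0, by brightest probe set, was 47.7% for BPA and 43.4% for DES. Without the control E18 array the BPA count was 4 of 8. Their summed signal was 2211 to 2497 on BPA arrays, 2481 to 2703 on DES arrays and 2268 to 3024 on control arrays, so the 3 groups overlapped. The pan-neuronal sum was 15163 to 16868 on BPA arrays, 15690 to 18364 on DES arrays and 17573 to 20032 on control arrays. There the BPA range lay below the control range and the DES range reached into it.

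**Figure D4:**
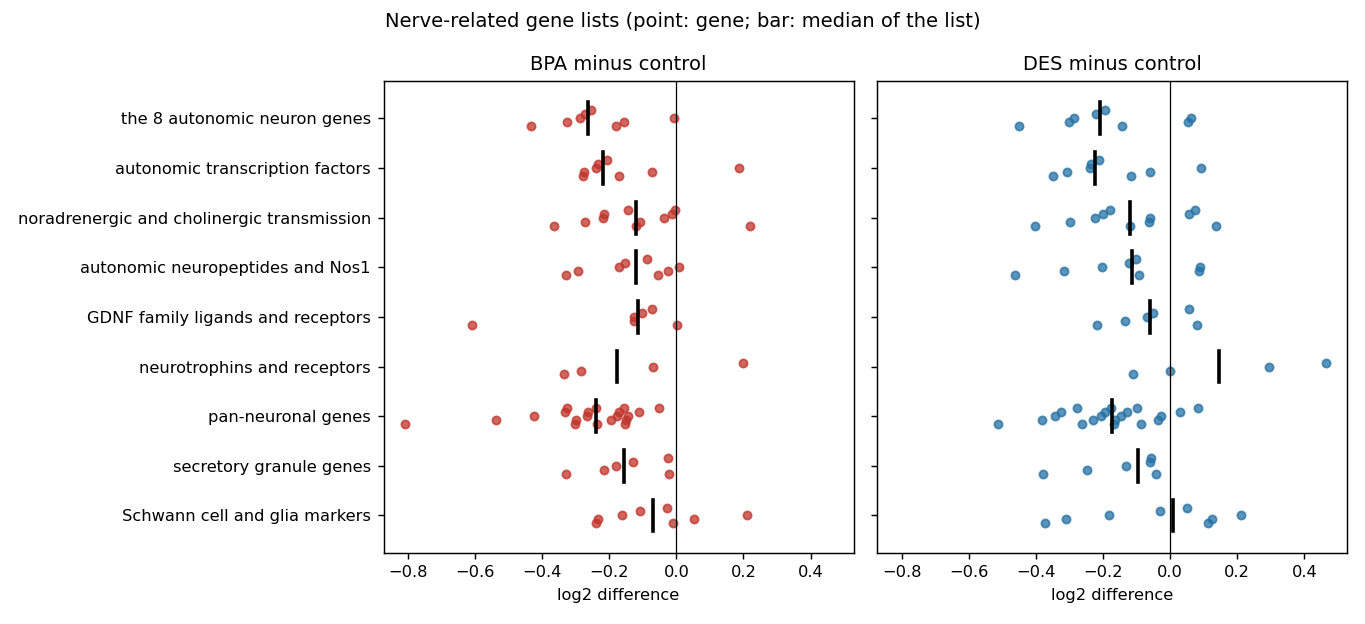
Log2 difference from control (x axis) of each tested gene in the nerve-related lists (y axis), for BPA and for DES, with 1 point per gene and a bar at the list's median. All 20 pan-neuronal genes lie left of 0 for BPA and 18 of 20 for DES, and the glia list is centred near 0.

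With age, the peptide genes and the secretory granule genes had values above 0 while Hand2 and Stmn4 had values below it. Npy gave 0.79 ± 0.17 for P0 against E17 (limma adjusted p = 0.108), Vip 0.38 ± 0.09 (limma adjusted p = 0.112) and Scg2, a granule protein, 0.68 ± 0.13 (limma adjusted p = 0.0853). None of them passed. Secretory granule genes were above 0 in 6 of 6 cases and neuropeptide genes in 7 of 8, against 50.3% of genes by their brightest probe set. Of the pan-neuronal genes, 9 of 20 lay above 0 and 11 below, with the neurofilament gene Ina lowest at -0.54 ± 0.14 (limma adjusted p = 0.128) and Nefm at -0.33. Sst was the neuropeptide gene below 0, at -0.40.

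The genes outside the 8 whose profile over the 9 arrays was most like the members' mean profile were ranked by Pearson r among 13391 genes, as a description. They were Cdk11b (r = 0.953), Crmp1 (0.933), Parp6 (0.916), Mapkapk5 (0.904), Syt11 (0.904), Iqgap2 (0.900), Rgl1 (0.896), Ttc17 (0.891), Dync1h1 (0.888) and L1cam (0.886). The points share arrays and normalisation. The members' mean profile was higher on every control array than on any exposed array. Genes picked for likeness to it therefore tend to lie below 0 against control, and all of those listed did for both agents. Parp6 differed by -0.38 for BPA and -0.45 for DES, and Rgl1 by -0.23 and -0.24. Crmp1 lay between 506 and 761 over the 9 arrays and differed from control by -0.38 for BPA and -0.29 for DES. L1cam, an axonal adhesion molecule, lay between 791 and 1061 and differed by -0.30 for BPA and -0.21 for DES.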

How the data were processed

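RNA of urogenital sinus was hybridised to Affymetrix arrays, 1 array for each of 3 agents at 3 ages. The authors deposited 1 linear intensity per probe set and array, and MAS5 is named in the submitters' processing notes. Its version and scaling target are not given in the sources used here. The intensities were not brought to a common level: the 2% trimmed mean was 157 on the BPA P0 array, the lowest, and 277 on the DES E17 array, the highest. They were therefore quantile normalised between arrays, and a "signal" in the text is a normalised intensity. No counts lie behind the intensities, and the number of arrays limits the precision. The 9 arrays are of E17, E18 and P0, and none is labelled P1.

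Of the 45037 probe sets without controls, 34945 had 1 gene symbol in the platform annotation, 932 had several and 9160 had none listed. Values were transformed as log2(signal + 5.46), 5.46 being the 10th percentile of the normalised signals, and changes of dim probe sets are understated. Probe sets under the 40th percentile of mean log2 value were left out. Age and agent were the factors of a linear model of the 9 arrays (lmFit and trended eBayes of limma 3.58.1, run in R 4.3.3), with 4 residual and 5.77 prior degrees of freedom. A second model had a linear age term for each agent (2 residual degrees of freedom). P-values were adjusted over the 26999 tested probe sets by Benjamini-Hochberg at 0.05, and each SD is over 3 arrays. An exact permutation test of 3 arrays against 3 cannot go below 0.1.

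The members and the gene lists were chosen with earlier results of these data known. All probe sets of the 8 members are named. From the other lists, each gene by its brightest single-symbol probe set, genes past the threshold and at most the 4 with the largest difference in a comparison could be named, together with defining markers of other cell types and the 10 genes most like the members. A gene named by this rule in 1 comparison may have its value in another beside it. Alternatives were the deposited scale, linear scaling, pseudocounts of 1 and 16, filters, 1 probe set per gene, eBayes without trend, array weights, and leaving out arrays.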

Additional observations from a re-analysis of the deposited data

How the results depend on the processing

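The agent comparisons had 0 member probe sets past the threshold under all 20 alternatives, for BPA and for DES alike. Some alternatives tested fewer than 17 member probe sets, such as 1 probe set per gene. With the values as deposited, the median of all probe sets moved to -0.24 for BPA, 0.08 for DES and -0.29 for P0 against E17. On that scale 1 member probe set passed for P0 against E17 and 1 for the BPA change per age step, 1 gene of 8 had all DES arrays below all control arrays, 0 had all P0 arrays above all E17 arrays, 1 had all P0 arrays below all E18 arrays, and 14 of 28 pairs correlated past the threshold. Also on that scale, P0 minus E17 turned to -0.16 for Th, -0.039 for Ret and -0.24 for Stmn2, and was -1.02 for Stmn4. With 1 probe set per gene, 1 member (Stmn4, -0.72) passed for P0 against E17. Array weights turned Stmn2 by age to -0.019. With the DES E17 and BPA P0 arrays both left out, Dbh by age turned to 0.043 and 2 genes had all P0 arrays above all E17 arrays. Leaving out 1 array at a time gave 0 to 1 member past the threshold for P0 against E17 and 0 to 1 for P0 against E18. The same step gave ranges that cross 0 of -0.11 to 0.073 for BPA Hand2, -0.036 to 0.14 for DES Hand2, -0.072 to 0.15 for DES Stmn4, -0.11 to 0.043 for Phox2a by age, -0.058 to 0.11 for Stmn2 by age and -0.21 to 0.050 for Dbh by age. Stmn4 ran from -0.83 to -0.60 for P0 against E17 and from -0.89 to -0.67 for P0 against E18. Over all probe sets, 25 passed for P0 against E17, against 392 as deposited, 83 with 1 probe set per gene, 7 without a filter, 56 with the filter at the 60th percentile, 0 without the trend, 10 with array weights and 1606 without the DES P0 array. For BPA the count over all probe sets was 0, against 34 as deposited and up to 7 when 1 array was left out. The causes were not tested. The age factor already compares the agents within each age, and no pairing beyond age was made because the labels give none.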
